A study of Mus musculus with 4 samples.

Results

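The cells described here are 433 dendritic-type immune cells of the mouse digit, defined by transcripts of Cd209a, Flt3 and Klrb1b, of 39266 cells that passed the quality filter in 4 single-cell RNA libraries. A cell was chosen by its counts of unique molecular identifiers (UMIs, each tagging 1 captured RNA molecule). The quality filter asked for 500 genes and 1000 UMIs or more, with mitochondrial UMIs at 10% or less. A member had no UMI of Cdh5, at least 10 UMIs of H2-Aa, H2-Ab1 and Cd74 together, and under 3 of Cd79a and Cd79b together. Its summed UMIs of Cd209a, Flt3 and Klrb1b had to reach 3 and exceed each of 4 other sums. Those other sums stood for Lyve1, Folr2, Cbr2 and F13a1, for Ms4a7, Ms4a14 and Apoc2, for Acp5, Clec5a and Matk, and for Ear2, Adgre4, Plac8 and Ly6c2. The values of these genes therefore describe the choice and are not results.

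The study cut digits of FVB/NJ wild-type mice through the middle phalanx (P2), an amputation level after which the digit scars, and asked how the tissue changes over time. One library came from unamputated, homeostatic P2 tissue, and 1 library each came from fibrosing tissue at 12, 17 and 28 days post-amputation (dpa). In all 4 groups the labels give wild-type animals of 8 weeks, males and females pooled. All tissue went through enzymatic digestion (collagenase I and trypsin), lysis of red cells and a live-cell sort on propidium iodide before 10x 3′ v3 library preparation. Every group is a pool of animals in 1 library, so no difference has a replicate check and no test was made. The intervals are 95% intervals for counting error only.

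Dendritic cells take up antigen in tissues, travel to lymph nodes through lymph vessels and present peptides on major histocompatibility complex (MHC) molecules to T cells. Conventional dendritic cells develop under the growth factor receptor Flt3 and carry the transcription factor Zbtb46. The type 2 branch uses Irf4 and many C-type lectins such as Cd209a and Clec10a, and the type 1 branch uses Irf8 and Batf3 and carries Xcr1 and Clec9a. After maturation, dendritic cells of either branch gain the lymph node homing receptor Ccr7 and the actin bundler Fscn1.

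Of the 3 genes in the rule, Cd209a (ENSMUSG00000031494) encodes a lectin that binds mannose-rich glycans and lies at chr8:3743397-3748984 on the minus strand. Flt3 (ENSMUSG00000042817) lies at chr5:147330741-147400489 and Klrb1b (ENSMUSG00000079298), which encodes a lectin-like receptor also known from natural killer cells, at chr6:128813706-128826331, both on the minus strand. All 3 are protein-coding in GENCODE M21 (GRCm38). Promoters are shown for Cd209a, Cd209d and Timd4, which held the motif match described next. No such match was found for Flt3 or Klrb1b. Windows around the RefSeq gene start (GRCm38.p6) are printed on the strand of the gene, with capitals for a match, on either strand, to GGAA followed after a gap of 2 bases by GAAA. This is the composite site of the factors PU.1 and IRF. The windows lie at chr8:3748935-3749234, minus strand, for Cd209a, at chr8:3878450-3878749, minus strand, for Cd209d, and at chr11:46810549-46810848, plus strand, for Timd4.
Cd209a: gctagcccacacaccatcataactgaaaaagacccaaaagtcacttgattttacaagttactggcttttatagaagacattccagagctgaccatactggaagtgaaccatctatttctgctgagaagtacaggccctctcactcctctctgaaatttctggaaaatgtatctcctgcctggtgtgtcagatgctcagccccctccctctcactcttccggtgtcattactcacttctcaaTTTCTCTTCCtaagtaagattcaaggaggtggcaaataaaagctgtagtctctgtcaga
Cd209d: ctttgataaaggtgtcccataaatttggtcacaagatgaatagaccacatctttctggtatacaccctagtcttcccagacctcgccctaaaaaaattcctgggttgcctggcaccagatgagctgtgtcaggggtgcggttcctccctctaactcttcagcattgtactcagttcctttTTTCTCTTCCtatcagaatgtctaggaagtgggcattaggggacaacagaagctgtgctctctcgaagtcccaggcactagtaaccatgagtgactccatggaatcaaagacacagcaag
Timd4: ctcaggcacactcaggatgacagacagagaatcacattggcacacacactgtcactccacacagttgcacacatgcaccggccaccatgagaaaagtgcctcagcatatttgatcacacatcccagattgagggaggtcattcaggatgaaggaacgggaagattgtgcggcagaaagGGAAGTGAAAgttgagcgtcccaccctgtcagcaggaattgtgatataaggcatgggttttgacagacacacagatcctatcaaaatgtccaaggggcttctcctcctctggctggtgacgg
The first base of the match stood 9 bases before the start of Cd209a, 70 before that of Cd209d and 72 before that of Timd4. The same letters, on either strand, were in 892 of 32851 promoters of this length, or 2.72%. Among the 22 genes highest in members (below), 19 had a promoter in the table and 1, Timd4, held the match. Other motifs were searched on both strands in the same promoters: GAGGAAGT (PU.1 site, in 3.2% of all promoters), AGAGGAA (PU.1 core, 10.4%), GAAA repeated after a gap of 2 bases (interferon response, 3.44%), TGANTCA (AP-1, 7.81%), CCAAT (Y box, 37.4%) and TGACGT (X2 box, 7.51%). Of the 19, GAGGAAGT and the repeated GAAA were in 0 promoters, AGAGGAA was in those of Cst3 and Mgl2, TGANTCA in those of H2-DMb1 and Zbtb46, CCAAT in 8 and TGACGT in that of Pak1. Motifs were chosen after expression values had been seen, and a match is a description of letters only.

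In the library labelled unamputated, 215 of 11954 cells were members, a share of 1.80% (interval 1.57 to 2.05). At 12 dpa, 85 of 6942 cells were members, 1.22% (0.979 to 1.51). At 17 dpa, 83 of 8693 were, 0.955% (0.761 to 1.18). At 28 dpa, 50 of 11677 were, 0.428% (0.318 to 0.564). The share was thus highest in unamputated tissue and lowest at 28 dpa, and the intervals of 12 and 17 dpa overlapped.

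The lower share of members at 28 dpa came with a smaller MHC class II gate. The whole gate held, in library order, 10.7%, 10.9%, 8.42% and 3.45% of cells. Within the gate, members were 16.7% (14.7 to 18.9) of unamputated cells. The amputated libraries gave, by time, 11.3% (9.10 to 13.8), 11.3% (9.13 to 13.9) and 12.4% (9.35 to 16). Inside the gate the 3 amputated libraries overlapped. The unamputated interval lay above those of 12 and 17 dpa and overlapped that of 28 dpa. A library's share depends on every other cell type captured, and fewer cells of a type and a lower yield on digestion cannot be told apart.

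**Figure D1:**
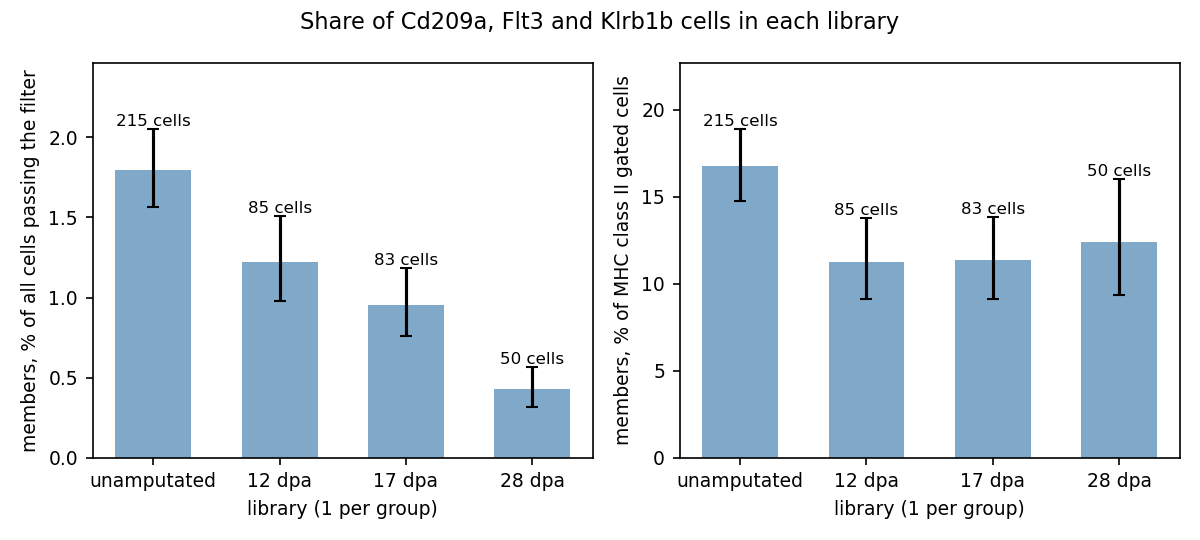
Bars give members as a percentage of all cells passing the filter (left) and of cells in the MHC class II gate (right) in each of the 4 libraries, with exact 95% counting intervals and cell numbers above. The share of all cells runs from 1.80% in unamputated tissue to 0.428% at 28 dpa, while the share of the gate lies between 11.3% and 16.7%.

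Depth differed between libraries and bears on a rule that counts UMIs. Members had a median of 11771, 9361, 9172 and 7380 UMIs in library order, and all passing cells had 12394, 9987, 8898 and 7114 in that order. With each cell thinned to 4000 UMIs before the rule, shallower cells left out, members were 1.23%, 0.736%, 0.699% and 0.285%. Of the members, 12, 19, 13 and 14 cells in library order sat exactly at a sum of 3 UMIs. Just outside, 17, 20, 15 and 15 cells had a sum of 2 that was ahead of the other sums. A further 64, 12, 25 and 11 cells reached 3 but were not ahead. The median sum was 10, 6, 6 and 4, so members of the 28 dpa library lay closest to the threshold.

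Across the whole series, the 4 libraries held 92313847 to 197140774 UMIs over 8813 to 16045 barcodes. Barcodes called doublets were 6.51%, 5.88%, 9.64% and 12% of members, beside 13.01%, 6.22%, 8.90% and 13.3% of all passing cells. Among all passing cells, 339 of 39266 had a barcode also seen in another library, and among members 3 of 433 did. Although the labels describe both sexes pooled, members with at least 2 UMIs of Xist and no Y-linked UMI numbered 41 of 85 at 12 dpa and 0 in the other 3 libraries. Members with at least 2 Y-linked UMIs and none of Xist numbered 176, 0, 54 and 20. Sex and the 12 dpa time point therefore cannot be told apart in any value below.

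Although the cells are named for Cd209a, 174 of 433 members (40.2%) had no UMI of it. Cd209a was detected in 66.5%, 44.7%, 59.0% and 58% of members in library order. Flt3 was detected in 84.2%, 77.6%, 71.1% and 60%, and Klrb1b in 80.5%, 85.9%, 74.7% and 80%. All 3 genes together were seen in 42.8%, 23.5%, 25.3% and 20% of members. Dendritic genes not used by the rule were present in every library: all 8 shared dendritic markers were detected in at least 25% of members of the first 3 libraries and 6 of 8 at 28 dpa. Of 15 type 2 markers, 11, 10, 10 and 10 passed the same mark. Cst3 made up most of the summed level of the 8 shared markers. The other 7 summed to 756, 772, 808 and 631 CPM in members, beside 128, 134, 148 and 93.6 CPM in the Ms4a7 set, macrophage-type cells of the same MHC class II gate. Called doublets made up 7.8%, 8.10%, 8.39% and 31.25% of the Ms4a7 set in library order. Its keratinocyte markers summed to 488.5, 470, 133 and 2267 CPM, so its 28 dpa values below carry this limit. The type 2 markers summed to 2361, 1540, 2132 and 1967 CPM in members and 1651, 1257, 1521 and 987 CPM in the Ms4a7 set. Type 1 markers summed to 1102, 1296, 1694 and 1184 CPM in members and 683, 503, 469 and 413 CPM in the Ms4a7 set. Monocyte markers summed to 1496, 1041, 1383 and 2050 CPM in members and 1663, 1613, 1854 and 2509 CPM in that set. The cells were dendritic by the shared markers, but they were not a single subset, and they are called members or Cd209a, Flt3 and Klrb1b cells here.

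Members with and without a Cd209a UMI differed in the genes of other subsets. Type 1 genes and most maturation genes given here were higher in those without, and plasmacytoid genes were mixed. Over all libraries, Irf8, the factor of the type 1 branch, was at 49.8 CPM (UMIs per 1000000 UMIs of the summed cells) in the 259 members with Cd209a and 457 CPM in the 174 without. Naaa, an acid amidase abundant in type 1 cells, was at 175 and 619 CPM, and Wdfy4, which is needed for cross-presentation, at 136 and 535 CPM. The maturation chemokine Ccl22 was at 29.2 and 256 CPM, but 1 cell gave 42.9% of its UMIs in those without, and leaving out that cell gave 147 CPM. Ccl17, another chemokine of maturation, was higher with Cd209a (71.8 CPM) than without (29.99 CPM), with 33.7% and 33.3% of its UMIs from 1 cell. Plasmacytoid markers did not follow the type 1 genes: with and without Cd209a, Tcf4 was at 288 and 240 CPM, Bcl11a at 96.0 and 65.7 CPM and Siglech at 23.5 and 27.1 CPM. In the other direction, the galactose lectins Clec10a and Mgl2 were at 466 and 306 CPM with Cd209a and at 69.5 and 59.5 CPM without it. Cd209d, a family member beside Cd209a, was at 262 and 12.4 CPM. Members of the Cd209 and Klrb1 families and the pair Clec10a and Mgl2 are close paralogs, and how their shared reads were counted was not given in the sources used here, so their values are uncertain. Median depth was 9717 UMIs per cell with Cd209a and 11136 without, and its part in the split was not tested.

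Small gates on marker UMIs measured these subsets. At least 2 UMIs of Xcr1 and Clec9a together, the type 1 gate, were found in 20 of 215 members (9.30%, 5.78 to 14.0) in unamputated tissue. The amputated libraries gave 14.1% (7.51 to 23.4), 15.7% (8.61 to 25.3) and 12% (4.53 to 24.3) by time, so all intervals overlapped. The same gate held 0 of 500, 395, 274 and 64 cells of the Ms4a7 set, with exact upper limits of 0.735%, 0.930%, 1.34% and 5.60% for cells with 2 such UMIs. Counting 3 cells of the total as the limit of a 0, these counts allow shares up to 0.6%, 0.76%, 1.1% and 4.69%. Median depth of that set was 11002, 7906, 8208 and 7026 UMIs. Thinned to 2000 UMIs per cell, the type 1 share of members was 0.930%, 2.35%, 3.61% and 4%.

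The migratory gate, at least 2 UMIs of Ccr7, Fscn1 and Ccl22, held 20.5% (15.3 to 26.5) of unamputated members and 22.4% (14.0 to 32.7) at 12 dpa. The later libraries gave 13.3% (6.81 to 22.5) and then 4% (0.488 to 13.7). The 28 dpa interval lay below those of unamputated tissue and 12 dpa and overlapped that of 17 dpa. Thinned shares were 6.05%, 9.41%, 3.61% and 2%, whose 28 dpa interval (0.0506 to 10.7) overlapped that of every other library. The Ms4a7 set gave 2%, 2.28%, 0.730% and 1.56% before thinning. The plasmacytoid gate, 2 UMIs of Siglech, Ccr9 and Cox6a2, held 9.30%, 10.6%, 3.61% and 2% of members, with 0.400%, 0.253%, 0.730% and 1.56% in the Ms4a7 set. Of these 3 genes, Cox6a2 was at 0 in members of the unamputated, 12 and 17 dpa libraries and Siglech at 0 at 28 dpa, so fewer genes filled the gate. Klk1, a listed plasmacytoid marker, was at 0 in members of every library.

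A gate on Cd207 and Epcam, genes of Langerhans cells, held 46.0% (39.2 to 53.0), 58.8% (47.6 to 69.4), 42.2% (31.4 to 53.5) and 36% (22.9 to 50.8) of members. The thinned shares were 18.1%, 34.1%, 16.9% and 16%, and the Ms4a7 set gave 5.40%, 5.82%, 2.19% and 3.12% unthinned. This gate rested on the adhesion molecule Epcam, which had a UMI in 53.9%, 65.9%, 49.4% and 46% of members. Cd207, the lectin that defines Langerhans cells, had a UMI in 5.58%, 5.88%, 9.64% and 10% of members and in 6.6%, 9.37%, 3.65% and 3.12% of the Ms4a7 set. Because few members had Cd207, they are not called Langerhans-type cells. The 5 listed Langerhans genes, Epcam among them, summed to 693, 1104, 503 and 633 CPM in members. In the Ms4a7 set they summed to 80.6, 109, 71.2 and 97.1 CPM. Outside the type 1, migratory and plasmacytoid gates stood 285 of 433 members, or 63.7%, 56.5%, 69.9% and 84% by library.

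**Figure D2:**
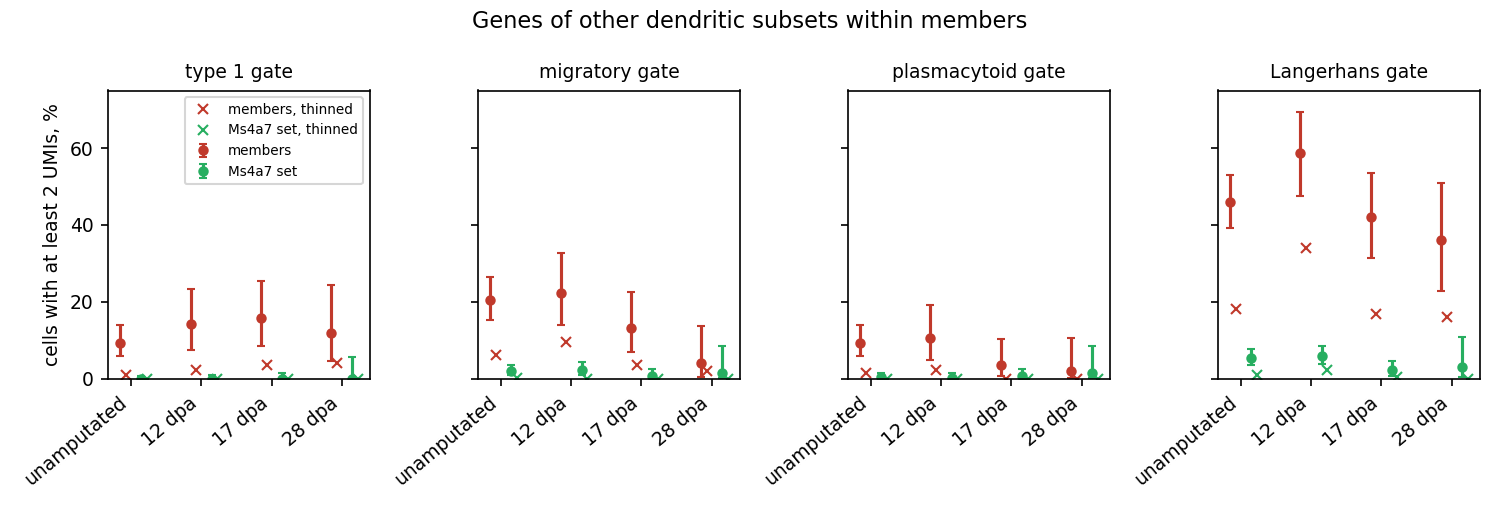
Points give the percentage of cells with at least 2 UMIs of each gate in members (red) and in the Ms4a7 set (green) in each library, with exact 95% counting intervals, and crosses give the share after thinning to 2000 UMIs per cell. The migratory share of members is 20.5% in unamputated tissue and 4% at 28 dpa, while the type 1 shares overlap in all 4 libraries.

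Members were next compared with the 4 other sets of the same MHC class II gate, wherever a set had at least 50 cells (13 pairs of set and library). These sets were cut by the same rule, so the comparison is a description. The values below for other sets leave out the sets under 50 cells, which were the Lyve1 set (14 cells) and Ear2 set (34 cells) at 12 dpa and the Ear2 set (20 cells) at 28 dpa. Of 2534 genes, 22 (0.868%) were at least 2-fold higher in members in all 13 pairs, and of 2009 genes, 12 (0.597%) were at least 2-fold lower in all 13. The higher genes included Zbtb46, the transcription factor of conventional dendritic cells, at 97.7, 90.0, 108 and 102 CPM in library order, against at most 26.0, 3.62, 25.6 and 15.6 CPM in any other set.

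Epcam, an adhesion molecule of epithelia and Langerhans cells, was at 404, 712, 291 and 279 CPM in members. The highest other set had 71.7, 111, 46.5 and 34.3 CPM. Cst3, which encodes the protease inhibitor cystatin C and is abundant in dendritic cells, was at 6493, 12279, 9136 and 8237 CPM, with at most 2134, 2734, 2852 and 3192 CPM elsewhere. H2-DMb1, a chain of the molecule that loads peptides onto MHC class II, was at 533, 543, 427 and 480.2 CPM in members and at most 250.2, 241, 195 and 132 CPM in another set.

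Timd4, a receptor for phosphatidylserine on dying cells that is also known from resident macrophages, was at 286, 366, 171 and 146 CPM. Its highest level in another set was 120, 17.4, 24.7 and 39.0 CPM. Il1r2, the decoy receptor that binds interleukin 1 without signalling, was at 393, 489, 129 and 109 CPM, and the other sets reached 146, 62.9, 48.8 and 7.92 CPM. Mgl2 was at 181, 164, 305 and 218 CPM, with at most 29.6, 7.56, 64.3 and 76.1 CPM in another set. Tmtc2, Olfm1, Naaa, Pak1 and Wdfy4 were also among these genes, with smallest log2 differences of 1.58, 1.36, 1.25, 1.23 and 1.16 over the 13 pairs. In the small Ear2 sets some levels were closer to those of members: at 12 and 28 dpa, H2-DMb1 was at 354 and 253 CPM there, Il1r2 at 238 and 84.3 CPM, Tmtc2 at 166 and 75.9 CPM and Wdfy4 at 108 and 152 CPM. Timd4 was at 53.8 and 50.6 CPM there. Cst3 (3118 CPM) and Mgl2 (26.9 CPM) at 12 dpa and Zbtb46 (25.3 CPM) at 28 dpa also exceeded the larger sets in these small ones.

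Among the 12 lower genes, Apoe, a lipid carrier, was at 146, 235, 202 and 138 CPM in members and between 685 and 8151 CPM in the other sets of unamputated tissue. Pla2g7, a lipase that breaks down platelet-activating factor, was at 13.3, 1.154, 1.29 and 4.85 CPM, against at least 187, 303, 137 and 142 CPM in each other set of at least 50 cells, and it was at 90.4 CPM in the small Lyve1 set of 12 dpa. The scavenger receptors Msr1 and Cd36, the cathepsins Ctsl and Ctsd and the lectins Clec4d and Clec4n were also among the 12.

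**Figure D3:**
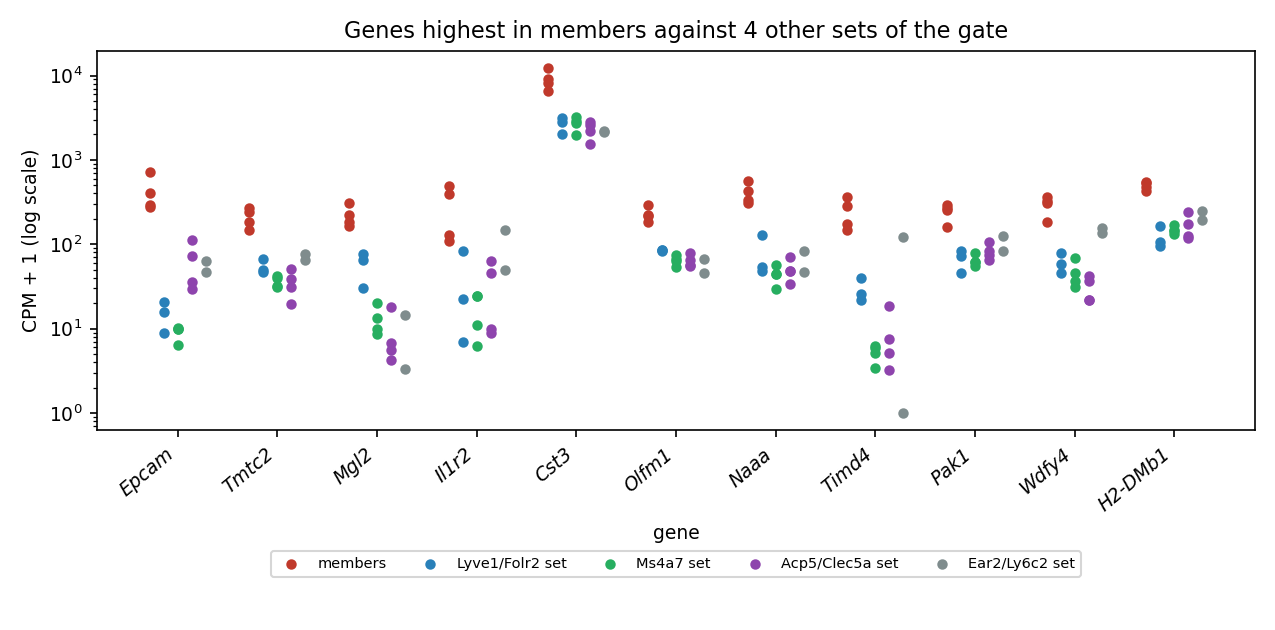
Each point is 1 library with at least 50 cells of a set, on a logarithmic axis of CPM plus 1, for 11 of the genes highest in members (red) against the 4 other sets of the gate. In every library the red points lie above those of the other sets from the same library, with Cst3 at 6493 to 12279 CPM in members.

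Against the unamputated library, members at 12 dpa had 55 of 3845 genes (1.43%) at least 2-fold higher and 185 (4.81%) at least 2-fold lower, with at least 50 CPM and 20 UMIs in the higher library. At 17 dpa, 53 of 3879 genes (1.37%) were higher and 142 (3.66%) lower. At 28 dpa, 159 of 3963 (4.01%) were higher and 379 (9.56%) lower. The 28 dpa sum held the fewest UMIs. With all sums thinned to its depth, the genes past 2-fold numbered 446, 365 and 651 by time, compared with 240, 195 and 538 unthinned. The median log2 difference over all tested genes was −0.23, −0.12 and −0.15, and scaling by the median of ratios moved these to −0.011, 0.0085 and −0.032. Under that scaling, higher genes were 49.5%, 43.3% and 41.0% of those past 2-fold, compared with 22.9%, 27.2% and 29.6% under CPM, so the excess of lower genes was smaller under that scaling. Of the higher genes, 36, 22 and 70 took over 20% of their UMIs from 1 cell, and such genes are not named below unless this is said. The 3 comparisons share the unamputated library.

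Among the genes named as lower at 12 dpa, Mrc1, the mannose receptor, was at 264 CPM in unamputated tissue, 39.2 at 12 dpa, 261 at 17 dpa and 216 at 28 dpa. Its log2 difference at 12 dpa was −2.72 (−3.29 to −2.25). Itga4, an integrin chain of leukocyte homing, was at 226, 50.8, 232 and 194 CPM, a difference of −2.13 (−2.63 to −1.71) at 12 dpa. The 12 dpa library stood alone on the low side for both genes, and the other 3 libraries lay close together.

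The same shape was seen for Ccr2, the receptor that draws monocyte-derived cells into tissue, at 513, 227, 552 and 470.5 CPM. It also held for Stxbp6, a regulator of vesicle fusion, at 152, 43.8, 148 and 148 CPM. Icam1, an adhesion ligand, was lowest at 12 dpa too, at 211, 64.6, 216 and 303 CPM, but it differed by 0.52 (0.24 to 0.81) at 28 dpa. Arl5c was lower as well, at 103, 24.2, 69.5 and 82.5 CPM. Lyz2, the lysozyme of myeloid cells, was at 1861, 471, 2329 and 6585 CPM and so was lowest at 12 dpa and highest at 28 dpa. In the Ms4a7 set, Lyz2 differed by −0.027 at 12 dpa, Mrc1 by −0.96, Itga4 by −0.86, Ccr2 by −0.60, Icam1 by −0.31 and Arl5c by −0.67. Stxbp6 differed there by −1.64, close to its −1.77 in members, and by −0.84 in the remaining cells. Cells at 12 dpa differed in sex from the others and held more members without Cd209a (55.3% against 33.5%). In the members with Cd209a alone, the 12 dpa differences were −2.21 for Mrc1, −2.10 for Itga4, −1.70 for Lyz2 and −0.95 for Ccr2. That of Ccr2 was under 2-fold there. Without Cd209a, Ccr2 was at 290, 143, 527 and 298 CPM, with 17 dpa highest, and differed by −1.015 at 12 dpa. Icam1 had this shape in members with Cd209a, at 272, 87.5, 239 and 205 CPM, but in those without it was at 112, 47.0, 186 and 421 CPM, lowest at 12 dpa and highest at 28 dpa.

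Of the 6 genes named as higher at 12 dpa, 4 (Cdk8, Gm42418, Cmss1 and Lars2) were also higher in the remaining cells of the library, by log2 differences of 1.85, 0.94, 1.39 and 1.11. In members they differed by 2.31, 1.81, 1.74 and 1.56. Ltb, a lymphotoxin chain made by type 2 dendritic cells and lymphocytes, was at 45.9, 104, 33.5 and 38.8 CPM, a difference of 1.16 (0.78 to 1.58), with −0.18 in the remaining cells. Its difference was under 2-fold with doublets removed (0.94), with cells thinned before the rule (0.49) and in members without Cd209a (0.94). Zfp366, a zinc finger factor of dendritic cells, was at 35.0, 108, 69.5 and 9.70 CPM, a difference of 1.60 (1.21 to 2.05). Outside the 3 subset gates it differed by 0.80, which is under 2-fold.

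At 17 dpa the early response gene Egr1 was at 67.6, 23.1, 313 and 87.3 CPM in library order, a log2 difference of 2.19 (1.93 to 2.49). Tnf, the inflammatory cytokine, was at 85.8, 46.2, 323 and 386 CPM, a difference of 1.90 (1.65 to 2.17) at 17 dpa. Tnf was thus high in the 2 later libraries and low in the 2 others, with 22.6% of its UMIs from 1 cell at 28 dpa. In the Ms4a7 set Tnf differed by 0.54 and Egr1 by 1.25. The named genes Rps27rt, Cmss1 and Cdk8 were higher in members by 1.67, 1.63 and 1.57 and in the remaining cells by 1.12, 1.12 and 1.12. Genes induced by tissue digestion were measured in the same cells: of 21 tested, 3 (Egr1, Ier2 and Nr4a1) were higher at 17 dpa and 1 was lower, with a median of 0.44, beside 1.37% higher, 3.66% lower and a median of −0.12 over all genes. The part of digestion in the levels of Egr1 and Tnf was not tested.

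Among the genes named as lower at 17 dpa, Htr7, a serotonin receptor, was at 206 CPM in unamputated members, 237 at 12 dpa, 50.2 at 17 dpa and 9.70 at 28 dpa. Its log2 difference was −2.01 (−2.54 to −1.57) at the earlier of these times and −4.27 (−6.29 to −3.04) at the later. The Ms4a7 set carried little of it and differed by −0.72 and −0.99. Arhgap24, an inhibitor of Rac signalling, was at 235, 202, 54.0 and 36.4 CPM.

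Gcnt2, a glycan-branching enzyme, was at 218, 246, 57.9 and 58.2 CPM. Gfpt1, the entry enzyme of hexosamine synthesis, was at 238, 202, 65.6 and 112 CPM, and Uck2, a uridine kinase, at 101, 83.1, 27.02 and 17.0 CPM. Htr7, Arhgap24, Gcnt2 and Uck2 had the same order: both earlier libraries were high and both later ones low. For Gcnt2 this differed within members: with Cd209a it differed by −1.01 at 17 dpa and −0.82 at 28 dpa, and without Cd209a by −4.12 and −5.46. With Cd209a as the only rule gene it differed by −0.86 at 17 dpa, and 1 cell gave 58.3% of its UMIs at 28 dpa. The Ms4a7 set differed for Uck2 by −0.39 at 17 dpa and by −2.23 at 28 dpa, where members differed by −2.50 and the remaining cells by −1.03. For Arhgap24 the Ms4a7 set differed by −0.67 and −0.85, for Gcnt2 by −0.39 and 0.80 and for Gfpt1 by −0.76 and −0.80. Il1r2 and Clec10a followed the order less sharply, with Clec10a at 363, 258, 180 and 141 CPM. Eno1, a glycolytic enzyme, differed by −1.91 in members and by −1.53 in the remaining cells.

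The largest difference among the genes named at 28 dpa was that of Fxyd2, a regulator of the sodium pump. It was at 35.7 (29.1 to 43.3) CPM in unamputated tissue, 33.5 at 12 dpa, 309 at 17 dpa and 1045 (949 to 1149) at 28 dpa. The log2 difference at 28 dpa was 4.83 (4.56 to 5.20). Fxyd2 was detected in 13.5%, 11.8%, 33.7% and 56% of members. Of its UMIs, 1 cell gave 46.1% in unamputated tissue, 44.8% at 12 dpa, 27.9% at 17 dpa and 17.2% at 28 dpa. It was higher at 28 dpa in the Ms4a7 set (1.63) and in the remaining cells (3.46) as well.

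Ecm1, a secreted matrix protein, was at 58.5, 55.4, 153 and 517 CPM, and Trem2, a lipid-sensing receptor of macrophages, at 54.6, 34.6, 96.5 and 383 CPM. The tetraspanin Cd81 was at 71.8, 26.5, 151 and 337 CPM, and Dok2, an adaptor of receptor signalling, at 20.7, 15.0, 47.6 and 124 CPM. Tppp3, a tubulin-binding protein, was at 164, 165, 437 and 711 CPM. All 6 were lowest in the unamputated or 12 dpa library and highest at 28 dpa. Trem2 differed by 2.79 (2.48 to 3.14) in members and by 0.15 in the Ms4a7 set, whose level was higher in all 4 libraries. The others were also higher at 28 dpa outside members: in the Ms4a7 set Ecm1 differed by 0.91, Cd81 by 1.69, Dok2 by 0.60 and Tppp3 by 1.14. In all remaining cells the differences were 1.74, 0.65, 1.99 and 1.97 in that order, and 0.97 for Trem2. With Cd209a as the only rule gene, Tppp3 differed by 0.54 at 17 dpa and 0.79 at 28 dpa, under 2-fold at both times.

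Macrophage genes were present in members beside these values. The summed level of 12 macrophage markers was 923, 691, 1134 and 1210 CPM in members, beside 13780 to 16955 CPM in the Ms4a7 set, and C1qa was at 38.2, 34.6, 81.1 and 94.6 CPM. At 28 dpa 1 cell gave 51.3% of C1qa UMIs. The 6 fibroblast markers summed to 2184 to 3000 CPM in members and to 19637 to 31314 CPM over all cells, which is RNA that dendritic cells should lack. Neutrophil markers summed to 1289, 8.08, 674 and 0 CPM, and haemoglobin genes to at most 1.05 CPM. The part of other cells' RNA in the results was not tested. In the members with a Cd209a UMI, Fxyd2 differed by 4.45, Ecm1 by 2.60 and Trem2 by 1.72 at 28 dpa, and in those without by 4.70, 3.48 and 3.68.

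At the low end at 28 dpa, Tbc1d8 was at 128, 129, 118 and 12.1 CPM, and Tbc1d4, which controls glucose transporter traffic, at 269, 513, 359 and 58.2 CPM. Both were low only in that library over all members, and both were lower there in members with and without Cd209a. In members with Cd209a, Tbc1d8 was low at 12 dpa too, at 47.5, 7.95, 49.6 and 8.91 CPM. Outside the 3 subset gates it was at 82.7, 45.1, 35.0 and 5.98 CPM and was past 2-fold lower at 17 dpa as well (−1.22). Tbc1d4 was at 138, 382, 79.7 and 23.9 CPM there. The size of the 28 dpa differences moved with the rule: over all members they were −3.29 for Tbc1d8 and −2.19 for Tbc1d4, and with Cd209a as the only rule gene −1.28 and −1.18. The Ms4a7 set differed by −1.44 and −0.90. Ctnnd2, a catenin, was at 161, 171, 55.3 and 29.1 CPM, a difference of −2.43 (−3.43 to −1.65), with 58.3% of its 12 UMIs at 28 dpa from 1 cell. The 28 dpa values rest on 412295 UMIs from 50 cells, compared with 2857044 UMIs from 215 cells in unamputated tissue.

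**Figure D4:**
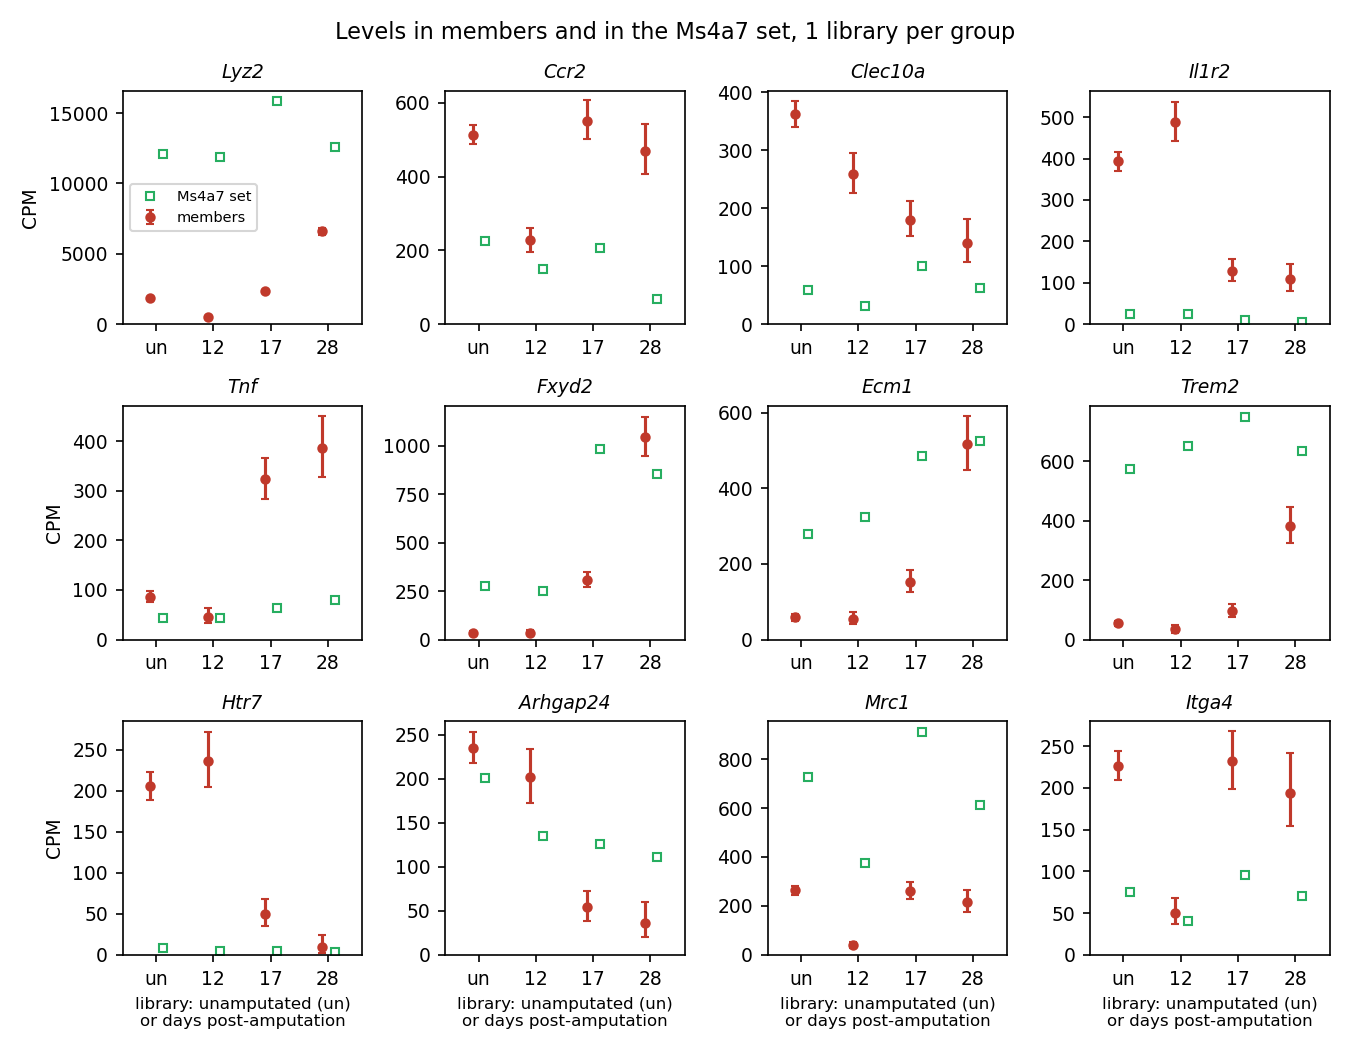
Panels give the CPM of 12 genes in members (red, with exact 95% Poisson intervals) and in the Ms4a7 set (green squares) in the unamputated library and at 12, 17 and 28 dpa, 1 library per group. Mrc1 and Itga4 are low at 12 dpa alone, Htr7 and Arhgap24 are low at 17 and 28 dpa, and Fxyd2, Ecm1 and Trem2 are highest at 28 dpa.

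The lists that follow are read against all tested genes, of which 1.43% were higher and 4.81% lower at 12 dpa, 1.37% and 3.66% at 17 dpa, and 4.01% and 9.56% at 28 dpa, with the medians given above. Of 13 MHC class II genes tested, 0 passed 2-fold at 12 and 17 dpa, with medians of 0.043 and −0.042, and of 11 at 28 dpa 1 did, with a median of −0.15. That gene was Ciita, the master regulator of the class II genes, at 202, 192, 151 and 92.2 CPM. H2-Eb1 was at 138, 151, 153 and 177 CPM. Of 12, 13 and 12 MHC class I genes, only H2-T23 at 28 dpa passed 2-fold. Both counts at 28 dpa were thus near the share of all genes that were lower. The rule asked for 10 UMIs of H2-Aa, H2-Ab1 and Cd74, which sets part of the class II level.

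Of 11 co-stimulation ligands tested, 2 (Icam1 and Tnfsf9) were lower at 12 dpa, beside 4.81% of all genes, and 0 passed at 17 dpa, with medians of −0.45 and 0.032. At 28 dpa, 2 of 12 were higher and 3 lower, beside 4.01% and 9.56% of all genes, with a median of −0.16. The 17 dpa median took the other sign in 14 of 21 alternatives. Tnfsf9, the ligand of 4-1BB on T cells, was at 148, 56.5, 185 and 427 CPM. Cd86, which engages CD28 on T cells, was at 586, 528, 421 and 279 CPM and so was lowest at 28 dpa.

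Chemokines were uneven across cells. Of 11, 10 and 11 tested, 1, 1 and 3 were higher and 5, 2 and 4 lower at 12, 17 and 28 dpa, with medians of −0.80, 0.15 and 0.58. The shares over all genes were 1.43%, 1.37% and 4.01% higher and 4.81%, 3.66% and 9.56% lower. Of 21 alternatives, 8 turned the sign of the 17 dpa median (range −2.21 to 0.98) and 4 that of the 28 dpa median (range −1.37 to 1.45). With cells thinned to 4000 UMIs both were below 0, at −0.47 and −0.18. Ccl22, a ligand of Ccr4 on T cells, was at 108, 27.7, 359 and 21.8 CPM, but 1 cell gave 82.8% of its UMIs at 17 dpa. Cxcl2, which attracts neutrophils, was at 280.4, 160.4, 556 and 1077 CPM, with 25.4% from 1 cell at 28 dpa. Cxcl1 was at 50.05, 8.08, 45.0 and 286 CPM, with 27.1% from 1 cell there.

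Of 7, 7 and 9 chemokine receptors, 0, 0 and 2 were higher and 1, 0 and 2 lower, with medians of −0.51, −0.51 and −0.21. Ccr7 was at 86.1, 144, 87.5 and 17.0 CPM, beside the migratory shares given above, and 1 cell gave 54.4% of its UMIs at 17 dpa and 71.4% at 28 dpa. Of 6, 7 and 7 cytokines, 1, 1 and 3 were higher and 0, 0 and 1 lower, with medians of −0.34, 0.38 and 0.36. Of 21 alternatives by time, 1, 7 and 6 gave the other sign, and the values ran from −2.92 to 0.60 at 17 dpa and from −1.76 to 0.45 at 28 dpa. Il1b, the inflammatory cytokine, was at 1024, 1099, 946 and 417 CPM, with 28 dpa lowest. Il12b, a T cell-polarising cytokine, took 57.6% to 100% of its UMIs from 1 cell in every library.

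Of 17, 18 and 19 cytokine receptors, 0, 0 and 1 were higher and 1, 1 and 5 lower, with medians of −0.34, −0.36 and −0.10. Over all genes 1.43%, 1.37% and 4.01% were higher and 4.81%, 3.66% and 9.56% lower. The 5 at 28 dpa were Csf2rb2, Il2rg, Il1r2, Il4ra and Tnfrsf1b. Csf2rb2, a beta chain of the interleukin 3 receptor, was at 59.5, 63.5, 33.5 and 9.70 CPM. Il4ra, which binds interleukin 4 and 13, was at 54.3, 78.5, 27.02 and 17.0 CPM. Of 10, 11 and 14 C-type lectin and Toll-like receptors, 0, 0 and 1 were higher and 3, 1 and 1 lower, with medians of −0.56, −0.013 and 0.15, of which the last 2 took the other sign in 5 of 21 alternatives each. Clec10a was the lower one at 17 and 28 dpa.

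Lineage transcription factors gave 0, 2 and 0 higher and 4, 1 and 3 lower of 25, 25 and 24, with medians of −0.39, −0.12 and −0.41. Over all genes 4.81%, 3.66% and 9.56% were lower, and 1.43%, 1.37% and 4.01% higher. Irf4 was at 53.2, 21.9, 74.6 and 58.2 CPM, and Zeb2, which both monocytes and type 2 dendritic cells use, at 881, 343, 576 and 876 CPM. Both were lowest at 12 dpa. Irf8 was at 194, 276, 263 and 247 CPM and was not past 2-fold at any time over all members. Outside the 3 subset gates it was at 96.4 CPM in unamputated tissue and 199.5 CPM at 12 dpa, a difference of 1.04. Batf3, its partner in the type 1 branch, was at 35.7, 56.5, 90.1 and 43.7 CPM, past 2-fold at 17 dpa.

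Genes of tissue repair and alternative activation gave 1, 0 and 5 higher and 2, 4 and 2 lower of 12, 11 and 11, with medians of −0.24, −0.013 and 0.42. Beside these, all genes gave 1.43%, 1.37% and 4.01% higher and 4.81%, 3.66% and 9.56% lower. At 28 dpa the higher ones were Trem2, Timp2, Fn1, Lgals3 and Cd9. Lgals3, a galectin of phagocytes, was at 1042, 1036, 1171 and 2328 CPM, and Cd9, a tetraspanin, at 580.3, 516, 751 and 1295 CPM. Fn1 was at 365, 187, 176 and 963 CPM, with 34.3% from 1 cell at 28 dpa. Glycolysis and hypoxia genes gave 0 higher and 1 lower of 11, 12 and 11 at each time, with medians of −0.14, −0.50 and −0.091. Interferon-stimulated genes were mostly below the minimum, with 2, 2 and 1 of 21 tested and 0 past 2-fold.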

How the data were processed

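Single-cell RNA libraries, 1 per group, were analysed from 4 samples. The deposited values were UMI counts per gene and cell, made with Cell Ranger 7.1.0 on mm10 per the submitters' processing notes; the annotation release was not given in the sources used here. Cells were kept as stated in the report. The member rule and all gene lists were chosen with earlier results of these data known.

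UMIs were summed over members of a library and expressed as CPM (UMIs per 1000000 UMIs of those members). Differences are log2 ratios to the unamputated library after adding 1 CPM, which understates low genes. A gene was counted past 2-fold with at least 50 CPM and 20 UMIs in the higher library. Rule genes were left out. Cells were not treated as replicates, and no p-value was computed. Shares carry exact Clopper-Pearson intervals, CPM exact Poisson intervals and ratios exact binomial intervals, all at 95% and for counting error only. A count of 0 allows up to 3 counts of the total. Ratios and intervals were tested on drawn counts with known changes.

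Named genes were the 6 highest and 6 lowest ratios per comparison with at least 100 CPM and 30 UMIs, at least 0.5 of the level over all cells, and at most 20% of UMIs from 1 cell. The 12 genes with the largest smallest ratio to the other sets, at least 100 CPM in every library, were added, 1 of which is not reported here. Further genes were examples from the lists, and Lyz2, Ccr2 and Il1r2 were followed over all libraries after their values had been seen. Doublets were marked with Scrublet at 0.8% per 1000 barcodes in scanpy 1.11.5 and kept in the main values. Coordinates are from GENCODE M21, and promoters from RefSeq. Software was Python 3.11.15, numpy 2.4.6, scipy 1.17.1 and pandas 2.3.3. Alternatives covered cell filters, the rule, doublets, scaling, minimums and pseudocounts.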

Additional observations from a re-analysis of the deposited data

Results flagged for a closer look

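Xist, which is outside the comparisons, had at least 2 UMIs in 48.24% of members at 12 dpa, all without a Y-linked UMI, and in 0% of members of the other 3 libraries, although the labels describe both sexes pooled. At least 2 Y-linked UMIs, with none of Xist, were found in 81.9%, 0%, 65.1% and 40% of members in library order. No group held enough libraries to look for a sample that stands apart.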

How the results depend on the processing

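No paired analysis was possible because each group held 1 library. Shares are given in the order unamputated, 12, 17 and 28 dpa, and counts of genes past 2-fold in the order 12, 17 and 28 dpa, where the reported counts were 240, 195 and 538. The unamputated share was the highest and the 28 dpa share the lowest under every alternative run, with 2 exceptions: of the MHC class II gate the shares were 16.7%, 11.3%, 11.3% and 12.4%, and without members carrying a UMI of Col1a1, Col1a2, Krt5, Krt14, S100a8, S100a9, Cd3e or Pecam1 they were 0.134%, 0.0144%, 0.023% and 0.0257%, from 16, 1, 2 and 3 cells. The stricter filter gave 2.5% (unamputated), 1.62% (12 dpa) and 0.596% (28 dpa). A sum of at least 2 gave 1.51% at 12 dpa, and at least 5 gave 0.821%, 0.633% and 0.206% after amputation. Cd209a and Klrb1b alone gave 1.41%, 0.778%, 0.656% and 0.317%. Cd209a alone gave 0.87%, 0.288%, 0.437% and 0.128%, which turns the order of 12 and 17 dpa. Thinning to 4000 UMIs gave 1.23%, 0.736%, 0.699% and 0.285%. Members outside the 3 subset gates were 1.15%, 0.691% and 0.667% in the first 3 libraries; this alternative, and that on genes led by 1 cell, were chosen after seeing the data.

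Gene counts became 605 and 385 (12, 17 dpa) with Cd209a alone and 385 and 396 with thinned cells. With sums thinned to the smallest library they were 446, 365 and 651 at 12, 17 and 28 dpa. They were 477 (12 dpa) outside the 3 gates, and 699 and 546 (12, 17 dpa) from the 1 and 2 cells free of other cells' genes. They became 542, 452 and 928 at a minimum of 20 CPM, 40, 43 and 108 at 200 CPM, and 3504, 3635 and 5251 with no minimum. Without genes led by 1 cell they were 166, 140 and 438. From those 1 and 2 cells, Zfp366 (−5.08) and Ltb (−6.06) at 12 dpa and Egr1 (−5.08), Tnf (−1.06) and Tppp3 (−7.31) at 17 dpa changed sign. The chemokine median at 28 dpa became −0.54 with a sum of at least 5, −0.71 with Cd209a alone, −0.18 with thinned cells and −1.37 from 3 cells, and the chemokine receptor median at 12 dpa became 0.074 under the median of ratios. The cause was not tested, beyond the fewer cells or genes. Of 612 values for named genes under the 17 alternatives that can move a gene's own ratio, 479 stayed inside the counting interval. Depth limits genes under about 50 CPM, and the 28 dpa values rest on 50 cells, the fewest members of any library.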

Other observations

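Proliferation genes were detected in members at every time. A UMI of Mki67 or Top2a, which mark cycling cells, was found in 33.0% (26.8 to 39.7) of unamputated members. In the amputated libraries the shares were, by time, 31.8% (22.1 to 42.8), 31.3% (21.6 to 42.4) and 22% (11.5 to 36.0). The Ms4a7 set gave 21.6%, 17.2%, 21.9% and 25%. Thinned to 2000 UMIs, members gave 13.5%, 10.6%, 15.7% and 6%, and the Ms4a7 set 6.81%, 5.85%, 8.76% and 9.52%. Of 7 proliferation genes tested at each time, 0 passed 2-fold at 12 and 17 dpa and 2, Mki67 and Top2a, were lower at 28 dpa, beside 9.56% of all genes. Mki67 was at 91, 61.2, 95.2 and 43.7 CPM, with 22.2% to 33.1% of its UMIs from 1 cell in each library.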
